A study of Mus musculus with 6 samples.

Results

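The NF-kB subunits and feedback inhibitors were followed in B cells from the mouse spleen that were driven to switch to IgA in culture. They are 10 genes taken by name, out of 46983 genes measured: the 5 subunits *Nfkb1*, *Nfkb2*, *Rel*, *Rela* and *Relb*, and the inhibitors *Nfkbia*, *Nfkbib*, *Nfkbie*, *Nfkbiz* and *Tnfaip3*. All 10 were found and all 10 were expressed well above the level required for testing, a mean of at least 0.5 FPKM (reads per kb of gene length, scaled to the depth of the library), which 13312 genes reached.

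RNA-seq was performed on 3 WT and 3 *Hif1a* KO cultures. Per the methods of the study, class switching cultures were started from splenic follicular B cells that had been sorted as CD21int CD23+, a gate that would remove most other cell types. In the *Hif1a* KO mice, floxed *Hif1a* was deleted by cre expressed from *Mb1*, a gene of the B-cell lineage. The controls called WT were littermates that carried either 1 floxed allele with cre or floxed alleles on both chromosomes without cre, on the same C57BL/6 background, and the labels do not tell which library was which. Ages and the number of mice per culture are not given in the sources used here. All cultures received LPS at 5 μg/ml with BAFF, IL-5 and TGF-β, each at 10 ng/ml, until they were harvested at day 3. The comparison asks how B cells that lack HIF-1α differ under this stimulus. Nothing in the labels ties the libraries to separate animals, so that p-values measure the spread between these libraries, which may in part be technical.

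NF-kB transcription factors are dimers of the 5 subunits. In resting cells they are held in the cytoplasm by IkB proteins. In the canonical pathway, LPS or antigen activates the IKK complex, which marks the IkB proteins for destruction. In the noncanonical pathway, BAFF or CD40 stabilizes the kinase NIK, and the p100 precursor made from *Nfkb2* is cut to p52, the partner of RelB. Genes of several IkB proteins and of A20 are themselves induced by NF-kB, which limits the response. In B cells this system serves survival, activation and class switching.

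The depth was 25.0 to 37.2 M counted reads per library. *Hif1a* itself measured 36.5, 49.8 and 45.8 FPKM in the WT libraries and 46.5, 45.6 and 52.8 FPKM in the *Hif1a* KO libraries. The groups overlapped, and the value counts all exons of the gene, so that it does not check the deletion. All 10 B-cell markers were tested, with a summed level of 3811 to 4841 FPKM in WT and 3867 to 5096 FPKM in *Hif1a* KO. The 10 T-cell markers summed to at most 12.6 FPKM and the 7 NK-cell markers to at most 0.613 FPKM, with *Gzma* at 0 in all 6 libraries. WT replicate 1 stood apart from the other WT libraries. On the first principal component, which held 54.7% of the variance, it lay at −15.7, within the *Hif1a* KO libraries (−19.5 to −7.10), whereas WT replicates 2 and 3 lay at 26.2 and 25.9. WT replicate 1 also alone carried neutrophil transcripts, with a summed level of 39.9 FPKM for 10 markers against at most 0.606 FPKM in any other library. The log2 fold changes of the members and of the named pathway genes are therefore given with all 6 libraries and without WT replicate 1, when the WT group rests on WT replicates 2 and 3. WT replicate 1 was singled out by the same values that are tested. It is also the WT library nearest to *Hif1a* KO on this component. Calls and p-values without it are therefore descriptive and may overstate the difference.

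The promoters of 7 of the 10 genes were found in the RefSeq table used (assembly GRCm38.p6), and those of *Nfkb1*, *Relb* and *Nfkbiz* were not listed. The 250 bases before each annotated start were searched on both strands for the NF-kB letters GGGNNNTTCC, which read GGAANNNCCC on the other strand and were allowed to overlap. The motif was present in 8 of the 10 promoters of these genes, which belong to *Nfkb2*, *Rel*, *Nfkbia*, *Nfkbie* and *Tnfaip3*, and in 4.65% of all 32851 promoters in the table. The HIF letters ACGTG were present in 3 of the 10 promoters, those of *Rel* and *Tnfaip3*, and in 16.6% of all promoters. *Rela* and *Nfkbib* held neither. A match describes the letters in this window and does not show binding. A stretch around an NF-kB match is shown for each of the 5 genes that had one. Each is written 5′ to 3′ on the strand of the gene, with the matching letters in capitals.
Nfkb2 chr19:46304689-46304718 (+): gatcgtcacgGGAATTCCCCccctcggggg
Rel chr11:23771021-23771090 (−): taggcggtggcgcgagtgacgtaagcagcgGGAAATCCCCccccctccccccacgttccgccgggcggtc
Nfkbia chr12:55492648-55492706 (−): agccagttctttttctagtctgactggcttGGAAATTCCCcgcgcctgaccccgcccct
Nfkbie chr17:45555564-45555633 (+): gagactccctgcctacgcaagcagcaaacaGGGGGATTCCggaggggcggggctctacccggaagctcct
Tnfaip3 chr10:19015411-19015452 (−): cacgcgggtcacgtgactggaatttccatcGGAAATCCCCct
The matches begin 38, 91, 29, 106 and 12 bases before the annotated start, in this order. *Tnfaip3* and *Nfkb2* have 2 and 3 listed promoters. Their stretches shown here lie inside the span of the gene given below, upstream of an internal start. A further match in *Nfkb2* begins 11 bases before that start and reads ggggccgaaaGGGGCTTTCCc. The match of *Nfkbie* lies on the strand of the gene and the other four shown on separate lines on the opposite strand.

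*Nfkb2* varied more than any other member. It encodes p100, the precursor of p52 and itself an inhibitor that retains RelB in the cytoplasm (ENSMUSG00000025225, chromosome 19, 46304320 to 46312385, + strand of GRCm38). Its level was 61.8, 128.9 and 133.5 FPKM in WT replicates 1, 2 and 3. In *Hif1a* KO replicates 1, 2 and 3 it was 64.6, 73.0 and 59.8 FPKM. The values in WT replicates 2 and 3 were far above the other 4 libraries, WT replicate 1 lay among the *Hif1a* KO libraries, and the groups therefore overlapped. The means were 108.1 ± 40.2 FPKM in WT and 65.8 ± 6.66 FPKM in *Hif1a* KO (SD, n = 3). *Hif1a* KO over WT gave a log2 fold change of −0.63 (SE 0.29, 95% CI −1.31 to 0.05, limma adjusted p = 0.626), which did not pass the test. Leaving out WT replicate 1, the log2 fold change was −0.99 (SE 0.09, 95% CI −1.21 to −0.77) and *Nfkb2* was called lower in *Hif1a* KO (limma adjusted p = 0.00494, range over all alternatives 0.00494 to 1). Counting error was small beside these differences, since *Nfkb2* drew 5063 to 12492 reads per library. Of the 4584 exonic bases of *Nfkb2*, 531 are shared with exons of *AC114539.1* and 299 with exons of *Psd*, both on the opposite strand. The strand setting of the count is not given in the sources used here. *AC114539.1* has no FPKM value. *Psd* measured 11.9, 19.4 and 22.0 FPKM in WT and 12.9, 15.1 and 11.1 FPKM in *Hif1a* KO, with WT replicates 2 and 3 again highest. Like *Nfkb2*, the summed level of 15 macrophage markers was highest in these libraries, at 90.0, 201.1 and 137.9 FPKM in WT and 92.1, 92.1 and 99.6 FPKM in *Hif1a* KO. *Adgre1* made up much of this sum, at 59.8, 91.1 and 81.1 FPKM in WT and 67.7, 69.7 and 55.5 FPKM in *Hif1a* KO. The part of macrophages in the level of *Nfkb2* and of the members below was not tested. In bulk samples, fewer cells of a type and less RNA per cell cannot be told apart.

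*Nfkb1*, which encodes p105 and its product p50 (ENSMUSG00000028163, chromosome 3, 135584655 to 135691547, − strand), was level across the libraries. It measured 192.7, 198.3 and 193.6 FPKM in WT and 194.2, 208.4 and 191.3 FPKM in *Hif1a* KO. The highest and the lowest library differed by 1.09-fold, and the groups overlapped. Its log2 fold change was 0.02 (SE 0.06, 95% CI −0.12 to 0.16, limma adjusted p = 0.901) with 6 libraries and 0.01 (SE 0.06) without WT replicate 1.

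*Rela* encodes p65, the transactivating partner of p50 (ENSMUSG00000024927, chromosome 19, 5637483 to 5648130, + strand). Its level was 36.2, 34.6 and 34.8 FPKM in WT and 32.4, 37.9 and 36.8 FPKM in *Hif1a* KO. The *Hif1a* KO libraries spanned the whole WT range. This gave a log2 fold change of 0.02 (SE 0.08, 95% CI −0.16 to 0.20, limma adjusted p = 0.942) and 0.04 (SE 0.08) without WT replicate 1.

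*Rel*, which encodes the c-Rel subunit characteristic of lymphocytes (ENSMUSG00000020275, chromosome 11, 23736847 to 23770970, − strand), measured 22.6, 28.7 and 27.8 FPKM in WT. In *Hif1a* KO it measured 25.4, 25.7 and 21.2 FPKM. The highest values were those of WT replicates 2 and 3, *Hif1a* KO replicate 3 was the lowest, and the groups overlapped through WT replicate 1. The log2 fold change was −0.12 (SE 0.12, 95% CI −0.40 to 0.16, limma adjusted p = 0.723), and −0.23 (SE 0.10, 95% CI −0.46 to 0.01) without WT replicate 1, where it was not called either (limma adjusted p = 0.185, range over all alternatives 0.164 to 1).

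*Relb*, the subunit of the noncanonical pathway (ENSMUSG00000002983, chromosome 7, 19606217 to 19629438, − strand), measured 36.7, 41.6 and 42.5 FPKM in WT and 34.4, 38.9 and 39.1 FPKM in *Hif1a* KO. Again WT replicates 2 and 3 were the highest, by a small margin over *Hif1a* KO replicates 2 and 3, and the groups overlapped. The log2 fold change was −0.10 (SE 0.08, 95% CI −0.30 to 0.10, limma adjusted p = 0.690), and −0.17 (SE 0.07, 95% CI −0.35 to 0.02) without WT replicate 1.

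Among the inhibitors, *Nfkbia* had the highest level of all members. It encodes IkBα, the inhibitor that is destroyed and resynthesized in each round of canonical activation (ENSMUSG00000021025, chromosome 12, 55489410 to 55492647, − strand). It measured 197.9, 271.6 and 271.0 FPKM in WT and 186.9, 216.2 and 203 FPKM in *Hif1a* KO. Every *Hif1a* KO library was below WT replicates 2 and 3, and WT replicate 1 lay among them. The means were 246.8 ± 42.3 FPKM in WT and 202 ± 14.7 FPKM in *Hif1a* KO (SD, n = 3). With 6 libraries, the log2 fold change was −0.28 (SE 0.13, 95% CI −0.59 to 0.04, limma adjusted p = 0.626). Without WT replicate 1 it was −0.43 (SE 0.07, 95% CI −0.61 to −0.25) and *Nfkbia* was called lower in *Hif1a* KO (limma adjusted p = 0.0252, range over all alternatives 0.0252 to 1).

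*Nfkbie* encodes IkBε, a further cytoplasmic IkB with a slower feedback (ENSMUSG00000023947, chromosome 17, 45555703 to 45563169, + strand). Its level was 102.4, 141.6 and 146.9 FPKM in WT. The *Hif1a* KO libraries measured 100.7, 102.0 and 117.8 FPKM. The order was that of *Nfkbia*, with WT replicates 2 and 3 highest and WT replicate 1 within the *Hif1a* KO range. The log2 fold change was −0.27 (SE 0.15, 95% CI −0.61 to 0.08, limma adjusted p = 0.626). When WT replicate 1 was left out it was −0.43 (SE 0.08, 95% CI −0.63 to −0.23) and *Nfkbie* was called lower in *Hif1a* KO (limma adjusted p = 0.0321, range over all alternatives 0.0321 to 1).

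*Tnfaip3* encodes A20, a ubiquitin-editing enzyme that shuts off signalling to the IKK complex (ENSMUSG00000019850, chromosome 10, 19000910 to 19015657, − strand). It measured 26.4, 39.3 and 39.2 FPKM in WT and 25.4, 31.4 and 30.4 FPKM in *Hif1a* KO. As before, all other libraries were below WT replicates 2 and 3, and the groups overlapped. The log2 fold change was −0.24 (SE 0.17, 95% CI −0.64 to 0.15, limma adjusted p = 0.653). Without WT replicate 1 it was −0.43 (SE 0.10, 95% CI −0.67 to −0.18), as large as for *Nfkbia*, but did not pass the threshold of 0.05 (limma adjusted p = 0.0511, range over all alternatives 0.0483 to 1).

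*Nfkbib* encodes IkBβ, an inhibitor of p65 and c-Rel complexes (ENSMUSG00000030595, chromosome 7, 28758251 to 28767512, − strand). It measured 36.4, 33.9 and 36.7 FPKM in WT and 31.8, 33.4 and 35.8 FPKM in *Hif1a* KO. The groups overlapped and no WT library stood out. *Nfkbib* had a log2 fold change of −0.08 (SE 0.07, 95% CI −0.25 to 0.08, limma adjusted p = 0.692). It was −0.07 (SE 0.07) without WT replicate 1. Exons of *Sirt2* and *Ccer2* on the opposite strand share 42 and 314 of its 2169 exonic bases.

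*Nfkbiz* encodes IkBζ, a nuclear IkB protein that acts as a cofactor at a subset of NF-kB target genes (ENSMUSG00000035356, chromosome 16, 55811375 to 55838899, − strand). It measured 90.4, 94.2 and 90.1 FPKM in WT and 92.8, 89.0 and 88.1 FPKM in *Hif1a* KO. These values lay within 1.07-fold of each other, the narrowest range among the 10 genes. The log2 fold change was −0.03 (SE 0.06, 95% CI −0.16 to 0.11, limma adjusted p = 0.877), also without WT replicate 1 (−0.03, SE 0.06).

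**Figure D1:**
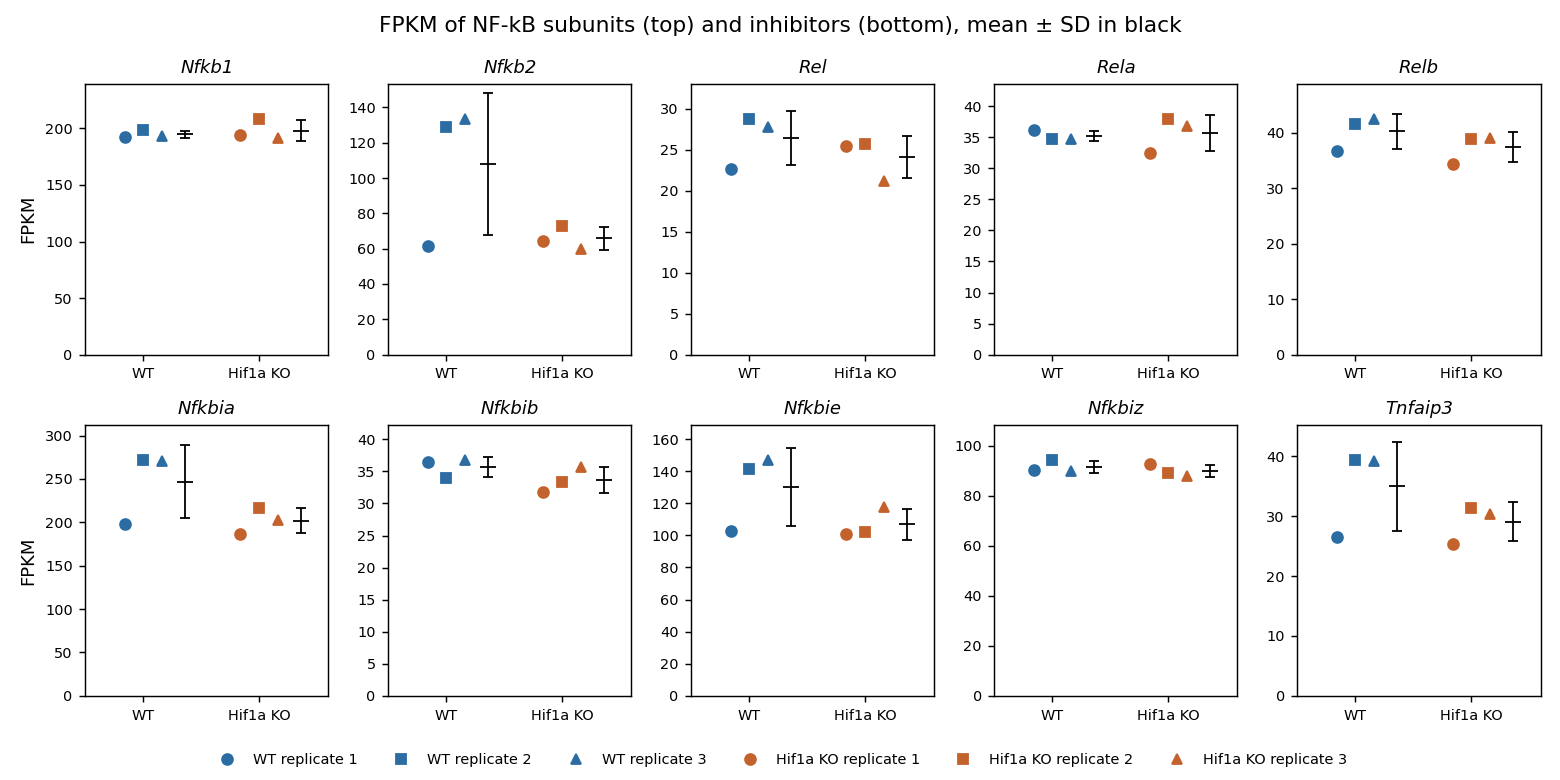
FPKM (vertical axes, from 0) of the 5 subunits (top) and the 5 inhibitors (bottom) in each WT and *Hif1a* KO library (points), with the mean ± SD of each group (black, n = 3). WT replicates 2 and 3 are above all other libraries for *Nfkb2*, *Rel*, *Relb*, *Nfkbia*, *Nfkbie* and *Tnfaip3*, whereas *Nfkb1*, *Rela*, *Nfkbib* and *Nfkbiz* range over less than 1.2-fold.

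Over the 10 genes, none was called in the comparison of all 6 libraries at a limma adjusted p under 0.05, and none of the 13312 genes tested was called (0%), as with voom in limma on the recovered reads. At an unadjusted limma p under 0.05, 0 of the 10 members and 6.98% of all genes tested passed. The member nearest to it was *Nfkb2* (limma unadjusted p = 0.0634, the smallest of the 10). For 0 of the 10 members did the values of the groups not overlap, against 10.1% of all genes. With 3 libraries against 3, an exact two-sided permutation test of a single gene cannot go below p = 0.1. In direction, 8 members and 57.9% of all genes tested were lower and 2 members, *Nfkb1* and *Rela*, were higher in *Hif1a* KO, with *Nfkbiz* turning to a log2 fold change of 0.0092 under median-ratio scaling. The median log2 fold change was −0.11 over the members and −0.03 over all genes tested.

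Without WT replicate 1, 3 of the 10 members were called, all lower in *Hif1a* KO: *Nfkb2*, *Nfkbia* and *Nfkbie*. Among all genes tested, 5.75% were called lower in this fit and 9.4% in either direction. All 3 *Hif1a* KO libraries were below WT replicates 2 and 3 for 6 of the 10 members, against 32% of all genes. In either direction, the groups did not overlap in this comparison for the same 6 members and for 50.5% of all genes, so that the count of members is near the general share. Here 8 members and 59.5% of all genes had a log2 fold change below 0. The median log2 fold change was −0.20 over the members and −0.05 over all genes. In a further fit, all 6 libraries were weighted by their spread in limma. WT replicate 1 had a weight of 0.238, and WT replicates 2 and 3 had weights of 2.42 and 2.08. The same 3 genes and *Tnfaip3* were called lower, against 6.82% of all genes called lower and 10.9% called in either direction. The weights came from the same values that are tested and left WT replicate 1 little influence. These calls are therefore also descriptive and may overstate the difference.

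**Figure D2:**
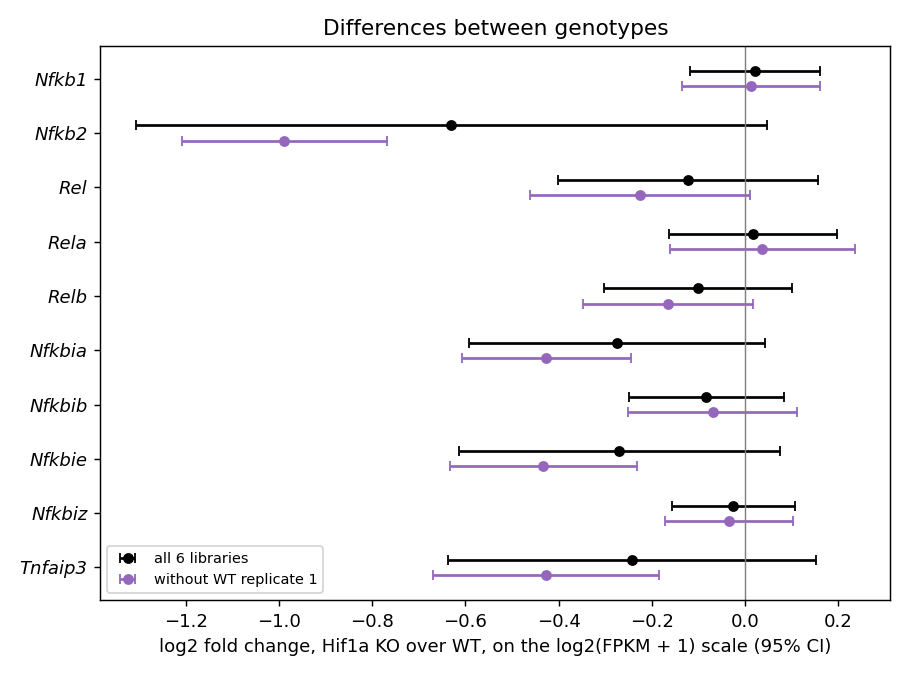
Log2 fold change of *Hif1a* KO over WT on the log2(FPKM + 1) scale (horizontal axis) with its 95% confidence interval for each member, with all 6 libraries (black) and without WT replicate 1 (purple). All intervals include 0 with 6 libraries, and those of *Nfkb2*, *Nfkbia*, *Nfkbie* and *Tnfaip3* lie below 0 without WT replicate 1.

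Some members followed the division between WT replicates 2 and 3 and the rest and others did not, but these sets were not sharply apart. WT replicates 2 and 3 were above every other library for 6 of 10 members, which was the case for 30.5% of all genes tested. Likeness was measured as the root mean square difference of the log2 values of a pair of members, each centred on its mean over the 6 libraries. *Nfkbia* was nearest to *Tnfaip3* (0.05), and *Nfkbie* was nearest to *Nfkbia* (0.09). *Nfkb1* was nearest to *Nfkbiz* (0.05), *Rela* to *Nfkb1* (0.07) and *Nfkbib* to *Rela* (0.08), the members with little variation. *Relb* was nearest to *Nfkbib* (0.09) and *Rel* to *Nfkbiz* (0.13), although *Relb* and *Rel* followed the division and *Nfkbib* and *Nfkbiz* did not. *Nfkb2* was the farthest from each of the others, with its nearest member *Tnfaip3* at 0.28 and its farthest, *Rela*, at 0.51.

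**Figure D3:**
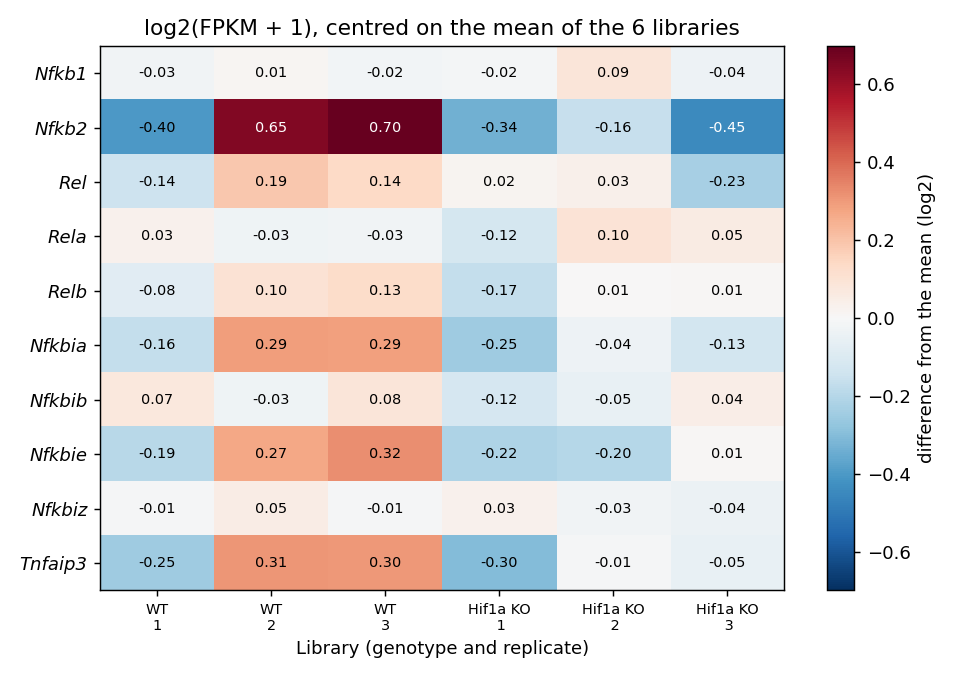
Log2(FPKM + 1) of each member (rows) in each library (columns), as the difference from the mean of the 6 libraries. *Nfkb2* is 0.65 and 0.70 above its mean in WT replicates 2 and 3 and 0.16 to 0.45 below it in the other 4 libraries. *Nfkbia*, *Nfkbie* and *Tnfaip3* are also highest in WT replicates 2 and 3, with smaller differences.

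Ratios of members within a library do not depend on the scaling between libraries. The ratio of *Nfkb2* to *Nfkb1*, the genes of the p100 and p105 precursors, was 0.321, 0.650 and 0.689 in WT and 0.333, 0.350 and 0.313 in *Hif1a* KO. It was thus similar in all *Hif1a* KO libraries and WT replicate 1, and higher in WT replicates 2 and 3. The ratio of *Nfkbia* to *Rela*, an induced inhibitor over the subunit it binds, was 5.47, 7.84 and 7.79 in WT and 5.77, 5.70 and 5.51 in *Hif1a* KO, with the same division. The ratio of *Nfkbia* to *Nfkbib*, the α and β inhibitors, was 5.43, 8.0 and 7.38 in WT and 5.87, 6.47 and 5.68 in *Hif1a* KO. This ratio too was highest in WT replicates 2 and 3, and the groups overlapped.

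The ratio of *Rel* to *Rela* was 0.624, 0.829 and 0.798 in WT and 0.784, 0.677 and 0.575 in *Hif1a* KO. Here *Hif1a* KO replicate 1 came close to WT replicates 2 and 3. The ratio of *Relb* to *Rela* was 1.01, 1.2 and 1.22 in WT and 1.06, 1.03 and 1.06 in *Hif1a* KO. Summed over the 5 subunits, the level was 350.0, 432.3 and 432.1 FPKM in WT and 351.1, 383.9 and 348.2 FPKM in *Hif1a* KO. The 5 inhibitors summed to 453.6, 580.7 and 583.9 FPKM in WT and 437.6, 472.0 and 475.0 FPKM in *Hif1a* KO. Both sums were highest in WT replicates 2 and 3, and their ratio, 1.30, 1.34 and 1.35 in WT and 1.25, 1.23 and 1.36 in *Hif1a* KO, varied little. The log2 difference of this ratio between the groups was −0.06, and −0.08 without WT replicate 1, and it was −0.03 and −0.10 when *Hif1a* KO replicate 2 or 3 was left out. For *Nfkb2* over *Nfkb1* the difference was −0.66, and −1.01 without WT replicate 1.

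**Figure D4:**
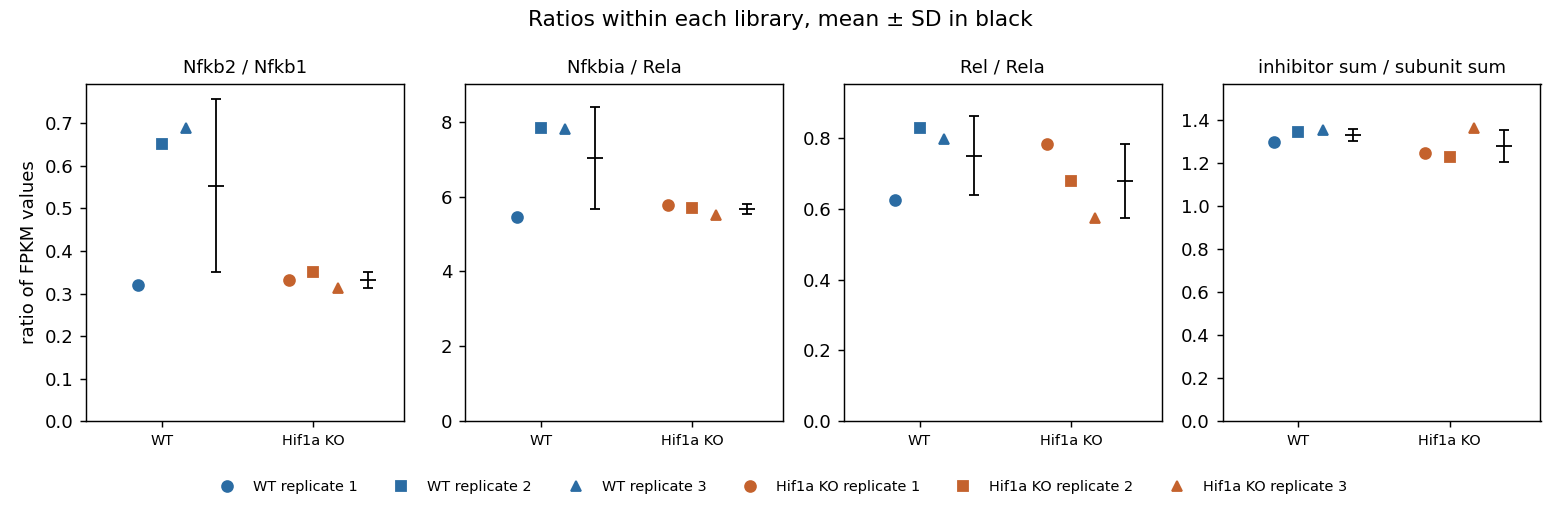
Ratios of FPKM values within each library (points; vertical axes from 0), with the mean ± SD of each group (black, n = 3). The ratio of *Nfkb2* to *Nfkb1* is 0.650 and 0.689 in WT replicates 2 and 3 and at most 0.350 elsewhere, whereas the ratio of the inhibitor sum to the subunit sum lies between 1.23 and 1.36 in all libraries.

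The order of the levels, as means of the 6 libraries in FPKM, was *Nfkbia* (224.4), *Nfkb1* (196.4), *Nfkbie* (118.6), *Nfkbiz* (90.8), *Nfkb2* (86.9), *Relb* (38.9), *Rela* (35.5), *Nfkbib* (34.7), *Tnfaip3* (32.0) and *Rel* (25.2). Among neighbours in this order, *Nfkb1* was above *Nfkbie*, *Nfkbie* above *Nfkbiz* and *Nfkb2* above *Relb* in all 6 libraries with ranges that did not overlap. *Relb* was above *Rela* in all 6 libraries with overlapping ranges, and the other 5 neighbours changed places in at least 1 library. The order also depends on the gene length used. The FPKM of *Nfkb1* rests on a length of 2707 bases, whereas its annotated exons cover 12061 bases, 4.46 times as many. Per kb of annotated exons, an alternative chosen after seeing the data, *Nfkb1* moved from rank 2 to rank 5, *Rel* moved from rank 10 to rank 7, and *Nfkbia* remained at rank 1. The length is the same in all libraries and hardly enters the comparison of the genotypes for a single gene or a pair of genes. In the sums over the subunits and over the inhibitors, it sets the weight of each gene. The sums and their ratio were not repeated with other lengths.

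Upstream of the IkB proteins, calls were about as frequent as over all genes tested (9.4% without WT replicate 1). Of 9 genes of the IKK complex and TAK1, 0 were called with 6 libraries and 1, *Map3k7*, was called lower in *Hif1a* KO without WT replicate 1. *Map3k7*, which encodes TAK1, the kinase that activates IKK, measured 47.1, 83.1 and 79.2 FPKM in WT and 63.1, 58.8 and 52.3 FPKM in *Hif1a* KO. WT replicate 1 was the lowest and the other WT libraries the highest, with a log2 fold change of −0.22 (SE 0.21), and −0.48 (SE 0.09) without WT replicate 1. The IKK subunits *Chuk* (IKKα), *Ikbkb* (IKKβ) and *Ikbkg* (NEMO) were not called in either fit, with log2 fold changes of −0.10 (SE 0.12), 0.05 (SE 0.09) and −0.04 (SE 0.06) over 6 libraries. Without WT replicate 1 these were −0.21 (SE 0.10), 0.07 (SE 0.09) and −0.04 (SE 0.06). The median log2 fold change of the 9 genes was −0.10, and −0.19 without WT replicate 1, and 0 had an unadjusted p under 0.05.

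Of 15 genes listed for LPS signalling through TLR4 and its regulation, 14 were tested and 0 were called with 6 libraries. Their median log2 fold change was −0.01, and 0.0004 without WT replicate 1, and 0 had an unadjusted p under 0.05. *Tlr4*, the LPS receptor, measured 6.97, 9.77 and 9.03 FPKM in WT and 8.27, 8.24 and 7.40 FPKM in *Hif1a* KO. The groups overlapped, and its log2 fold change was −0.09 (SE 0.13), and −0.21 (SE 0.08) without WT replicate 1, without a call. The adaptor *Myd88* had a log2 fold change of 0.10 (SE 0.09) and the ubiquitin ligase *Traf6* one of −0.06 (SE 0.08), and without WT replicate 1 they had 0.17 (SE 0.07) and −0.08 (SE 0.09). The kinase *Irak4* was above WT in all 3 *Hif1a* KO libraries, at 12.3, 12.9 and 12 FPKM against 11.4, 11.0 and 10.3 FPKM, and was not called (log2 fold change 0.17, SE 0.07, and 0.20, SE 0.07 without WT replicate 1). *Irak2*, a further kinase of this step, was the only gene of the list called without WT replicate 1 and was higher in *Hif1a* KO (log2 fold change 0.30, SE 0.06). It measured 47.1, 35.6 and 36.4 FPKM in WT and 45.4, 42.6 and 45.6 FPKM in *Hif1a* KO, with WT replicates 2 and 3 the lowest.

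Of 10 genes of the noncanonical pathway, 9 were tested, 0 were called with 6 libraries and 1, *Traf3*, was called lower without WT replicate 1. *Traf3*, an adaptor that keeps NIK low, measured 21.0, 28.5 and 30.4 FPKM in WT and 20.9, 23.0 and 19.0 FPKM in *Hif1a* KO. As for *Nfkb2*, WT replicates 2 and 3 were the highest and WT replicate 1 lay within the *Hif1a* KO range, and the log2 fold change was −0.32 (SE 0.15), and −0.47 (SE 0.09) without WT replicate 1. *Map3k14*, which encodes NIK, measured 20.7, 16.7 and 17.3 FPKM in WT and 19.7, 22.4 and 21.8 FPKM in *Hif1a* KO. Here WT replicates 2 and 3 were the lowest libraries, and the log2 fold change of 0.22 (SE 0.10) was not called, nor was that of 0.31 (SE 0.08) without WT replicate 1. The receptors that use this pathway, *Tnfrsf13c* (the BAFF receptor) and *Cd40*, had log2 fold changes of 0.13 (SE 0.12) and −0.14 (SE 0.10), and of 0.24 (SE 0.09) and −0.24 (SE 0.07) without WT replicate 1. *Traf2* had one of −0.05 (SE 0.09) and *Birc3*, the ubiquitin ligase cIAP2, one of −0.12 (SE 0.11), and without WT replicate 1 they had −0.10 (SE 0.09) and −0.23 (SE 0.08). None of these 4 genes was called in either fit. The median over the 9 genes was −0.07, and −0.12 without WT replicate 1, and 1 had an unadjusted p under 0.05.

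Of 20 further IkB proteins and regulators of NF-kB, 0 were called with 6 libraries, and 14 were lower and 6 higher in *Hif1a* KO, with a median of −0.08, and −0.13 without WT replicate 1, and 2 had an unadjusted p under 0.05. *Nfkbid*, which encodes the nuclear protein IkBNS, measured 24.5, 24.2 and 24.2 FPKM in WT and 21.9, 21.0 and 19.7 FPKM in *Hif1a* KO. Its groups did not overlap, which was the case for no member, and the 3 WT libraries were nearly equal, with a log2 fold change of −0.21 in both fits (SE 0.07) that was not called in either. *Bcl3*, a nuclear partner of p50 and p52, measured 59.8, 45.6 and 44.0 FPKM in WT and 52.7, 63.9 and 55.8 FPKM in *Hif1a* KO. WT replicates 2 and 3 were the lowest, and its log2 fold change of 0.21 (SE 0.13), and 0.35 (SE 0.09) without WT replicate 1, was not called. *Tnip3*, an A20-binding protein expressed at a low level, was above WT in all *Hif1a* KO libraries (1.93, 2.00 and 2.07 against 1.65, 1.24 and 1.02 FPKM). Without WT replicate 1, *Tnip3* was called higher (log2 fold change 0.49, SE 0.11) and *N4bp1*, an inhibitor of NF-kB signalling, was called lower (−0.38, SE 0.06). *Tnip1* and *Cyld*, which bind or cleave ubiquitin chains in the pathway, had log2 fold changes of 0.04 (SE 0.08) and −0.09 (SE 0.10), and of 0.11 (SE 0.06) and −0.19 (SE 0.07) without WT replicate 1, and were not called in either fit.

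Of 30 known NF-kB target genes outside the members, 0 were called with 6 libraries and 8 passed an unadjusted p under 0.05, with 25 lower and 5 higher in *Hif1a* KO, against 57.9% lower over all genes tested. Their median log2 fold change was −0.34, against −0.03 over all genes. Their summed level was 2150, 3775 and 3331 FPKM in WT and 2140, 2179 and 1977 FPKM in *Hif1a* KO. The sums of WT replicates 2 and 3 again lay above the other 4 libraries. In the fit without WT replicate 1, 16 of the 30 were called, all lower in *Hif1a* KO, against 5.75% of all genes called lower and 9.4% called in either direction. The median of the list was −0.58 in this fit, against −0.05 over all genes. The list was chosen with earlier results of these data known. WT replicate 1 was singled out by the same values that are tested, so these shares and medians are descriptive. The part of macrophages and of other cell types in the levels of these target genes was not tested. With 6 libraries, the groups did not overlap for 5 of the 30, against 10.1% of all genes. *Hif1a* KO was below WT for 3 of them and above WT for 2, *Cd83* and *Map3k8*. *Cd83* measured 178, 194 and 204 FPKM in *Hif1a* KO and 177, 166 and 173 FPKM in WT. It was not called (log2 fold change 0.16, SE 0.07, and 0.18, SE 0.07 without WT replicate 1), nor was *Map3k8* (0.16, SE 0.08 with 6 libraries).

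The chemokine genes carried much of the summed level. *Ccl22*, a ligand of CCR4, measured 794, 2132 and 1772 FPKM in WT and 791, 780 and 599 FPKM in *Hif1a* KO. All *Hif1a* KO libraries were below all WT libraries, WT replicate 1 by a narrow margin, and the log2 fold change was −1.01 (SE 0.35), and −1.44 (SE 0.15) without WT replicate 1. *Ccl4*, a chemokine that attracts monocytes and T cells, measured 5.09, 10.9 and 10.8 FPKM in WT and 4.66, 3.62 and 4.16 FPKM in *Hif1a* KO, in the same order, with log2 fold changes of −0.89 (SE 0.26) and −1.21 (SE 0.11). *Ccl3*, *Ccl5* and *Cxcl10* were also called lower without WT replicate 1, with log2 fold changes of −1.03 (SE 0.18), −1.41 (SE 0.26) and −1.34 (SE 0.19). *Cxcl10* was low, at most 2.42 FPKM.

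Cytokines, surface proteins and regulators of signalling, stress and growth were also among the 16 genes. In the fit without WT replicate 1, *Il6* had a log2 fold change of −1.22 (SE 0.12), *Il10* one of −0.82 (SE 0.13), *Ebi3* one of −0.61 (SE 0.08) and *Csf1* one of −0.92 (SE 0.13). The adhesion molecule *Icam1* measured 28.3, 42.3 and 44.0 FPKM in WT and 27.5, 30.1 and 30.3 FPKM in *Hif1a* KO, with log2 fold changes of −0.35 (SE 0.16), and −0.54 (SE 0.07) without WT replicate 1. WT replicate 1 lay among the *Hif1a* KO libraries for *Icam1*, as for *Nfkbia*. The costimulatory ligands *Cd80* and *Cd86* had log2 fold changes of −1.25 (SE 0.16) and −0.60 (SE 0.11) without WT replicate 1. *Traf1*, a signalling adaptor, had one of −0.60 (SE 0.10), *Gadd45b* and *Ier3*, stress response genes, had −0.62 (SE 0.12) and −0.86 (SE 0.16), and *Myc*, a regulator of growth, had −0.64 (SE 0.09). The survival gene *Bcl2l1* was not called in either fit (0.10, SE 0.13 with 6 libraries, and 0.21, SE 0.11 without WT replicate 1). The list also holds *Bcl2a1a*, *Bcl2a1b* and *Bcl2a1d*, near-identical copies between which reads could be split, and none of them was called.

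**Figure D5:**
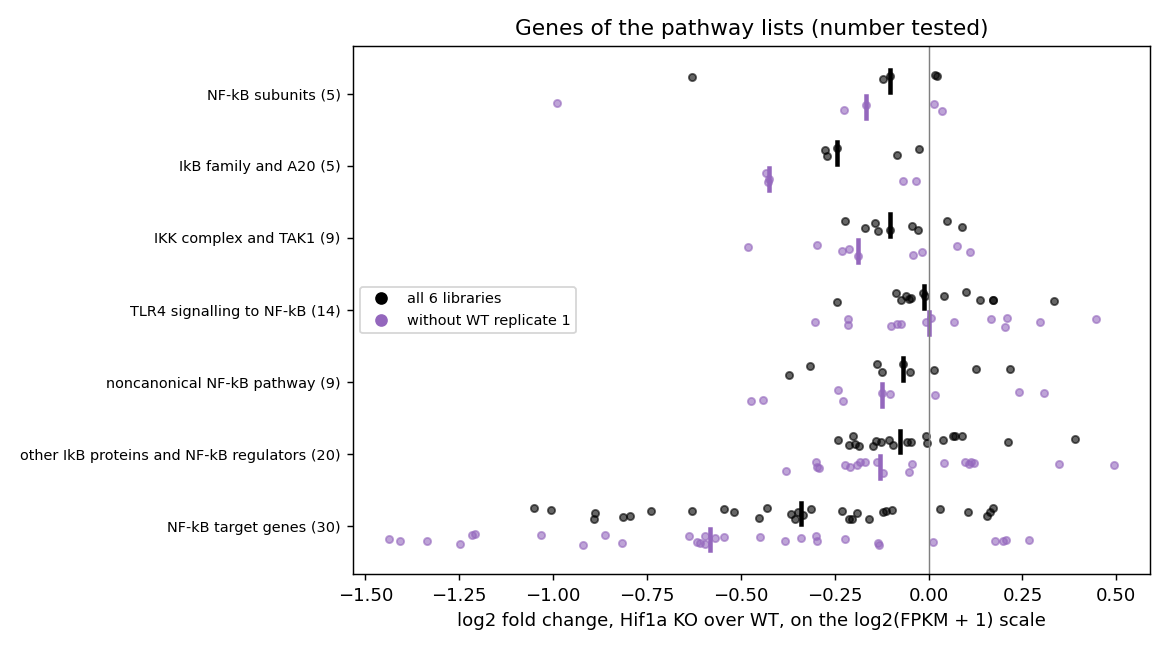
Log2 fold change of *Hif1a* KO over WT (horizontal axis) of each tested gene (points) in the member and pathway lists (vertical axis, with the number tested), with all 6 libraries (black) and without WT replicate 1 (purple), and the median of each list (bar). The NF-kB target genes have medians of −0.34 and −0.58, whereas the medians of the 4 lists between the members and the targets lie between −0.19 and 0.0004.

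Markers of other cell types were set beside the members. Of the 15 macrophage markers 8 were tested, and *Lyz2*, which encodes a lysozyme of myeloid cells, had the largest difference, at 6.18, 58.3 and 26.2 FPKM in WT and 0.60, 2.23 and 3.70 FPKM in *Hif1a* KO. *Lyz2*, *C1qa*, *Marco* and *Vcam1* were called lower without WT replicate 1. Not all of the list had this direction, since *Cd5l* measured 15.1, 5.62 and 7.28 FPKM in WT and 16.6, 11.4 and 31.0 FPKM in *Hif1a* KO (log2 fold change 1.37, SE 0.38 without WT replicate 1, not called) and *Mrc1* had a log2 fold change of 0.07 (SE 0.12) with 6 libraries. The 9 dendritic cell markers summed to 94.7, 119.3 and 116.8 FPKM in WT and 89.9, 76.1 and 102.7 FPKM in *Hif1a* KO, of which *Ccr7* made up 63.7 to 102 FPKM, and *Zbtb46* was called lower without WT replicate 1. The 7 erythroid markers summed to 3.35, 16.5 and 13.6 FPKM in WT and 2.96 to 4.84 FPKM in *Hif1a* KO, with *Hba-a1* and *Hbb-bs* called lower without WT replicate 1. The part of dendritic and erythroid cells in the levels of the members was not tested.

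The summed level of plasma cell markers stood in the opposite order. The 6 plasma cell markers summed to 715.4, 429.4 and 398.8 FPKM in WT and 681.2, 505.2 and 905.9 FPKM in *Hif1a* KO, so that WT replicates 2 and 3 were the lowest. *Prdm1*, which encodes the plasma cell regulator Blimp-1, measured 40.0, 17.1 and 16.7 FPKM in WT and 41.3, 29.2 and 55.9 FPKM in *Hif1a* KO. *Prdm1* and *Jchain* were called higher in *Hif1a* KO without WT replicate 1, with log2 fold changes of 1.22 (SE 0.25) and 1.0 (SE 0.17). *Sdc1*, which encodes the plasma cell surface marker CD138, was not called and measured 4.67, 3.80 and 3.19 FPKM in WT and 2.68, 3.67 and 4.01 FPKM in *Hif1a* KO. Among the B-cell markers, *Cd79b*, *Ebf1* and *Fcrla* were called higher without WT replicate 1, and 7 of the 10 were not called. The 7 stromal and endothelial markers summed to 76.7 to 98.5 FPKM, nearly all of it *Pecam1*. The part of B-cell differentiation stage in the levels of the members was not tested either.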

How the data were processed

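RNA was extracted with an RNeasy kit and libraries were made with a SMARTER kit. The authors aligned the reads to mm10 with TopHat, counted them per gene with HTSeq, and deposited FPKM values, 1 column per library. Their annotation release is not given in the sources used here. Symbols and positions were taken from GENCODE vM21, in which 46488 of the 46983 gene IDs were found. Promoters came from RefSeq (GRCm38.p6).

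Log2(FPKM + 1) values, with a pseudocount of 1, were fitted by limma 3.58.1 under R 4.3.3, using lmFit and a trended eBayes without covariates, over the 13312 genes whose mean FPKM reached 0.5. Genes were called at a Benjamini-Hochberg adjusted p under 0.05 over all of them. Fold changes on this scale understate the change of low genes. The script was tested on simulated data. Python 3.11.15, pandas 2.3.3, numpy 2.4.6 and matplotlib 3.10.9 were used for the rest. Reads were recovered as whole multiples of the worth of 1 read for 100% of the 25717 genes above 0. They gave the depth, in which read pairs may have been counted as 1. Each member drew 1029 to 19413 reads, so that counting error alone was at most 3.12%.

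The members and the lists were chosen with earlier results of these data known. The genes named are the 10 members, *Hif1a*, a set of genes chosen for their roles in the pathway, and each list gene called with 6 libraries or without WT replicate 1. *Psd*, *AC114539.1*, *Sirt2*, *Ccer2*, *Map3k8*, *Bcl2a1a*, *Bcl2a1b*, *Bcl2a1d*, *Gzma*, *Adgre1*, *Cd5l*, *Mrc1*, *Sdc1*, *Ccr7* and *Pecam1* were named after their values or positions were seen. *Irf4* stands in both the target and the plasma cell list, and *Cd14* in both the TLR4 and the macrophage list. Alternatives were another pseudocount (0.1), other filters, median-ratio scaling, quantile normalization, no variance trend, library weights, voom on the recovered reads, the replicate number as a block and each library left out in turn. Some list results are not reported here.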

Additional observations from a re-analysis of the deposited data

How the results depend on the processing

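Calls depended on WT replicate 1. The 0 genes called with 6 libraries (929 at an unadjusted p under 0.05) became 0 to 1251 when each library was left out in turn, and 1449 with library weights. The 1251 were called when WT replicate 1 was dropped, and dropping *Hif1a* KO replicate 1 gave 1. The members called became 0 to 3, and 4 with library weights (*Nfkb2*, *Nfkbia*, *Nfkbie* and *Tnfaip3*). The members whose groups did not overlap became 0 to 6, with 6 without WT replicate 1, where the groups did not overlap for 50.5% of all genes. The cause was not tested. Over 10 members and 15 alternatives, 139 of 150 log2 fold changes kept their direction and their side of the threshold, 7 passed it (3 without WT replicate 1 and 4 with library weights) and 4 reversed. *Nfkb1* was −0.016 without *Hif1a* KO replicate 2 (range with each library left out −0.016 to 0.046). *Rela* was −0.026 without *Hif1a* KO replicate 2 and −0.0057 without *Hif1a* KO replicate 3 (range −0.026 to 0.084). *Nfkbiz* was 0.0092 with median-ratio scaling. All 4 are small beside their SE. The median over the members and the 3 ratios chosen in the design moved by less than the spread between replicates in all alternatives run. That spread includes WT replicate 1 and is therefore wide. Without this library, the median went from −0.11 to −0.20 and the log2 difference of *Nfkb2* over *Nfkb1* from −0.66 to −1.01. The replicate numbers showed no clear pairing of the libraries: the deviations of same-numbered libraries from their group means had correlations of −0.10, 0.14 and −0.28. Those of differently numbered libraries ranged from −0.20 to 0.30. With so few libraries, these values cannot exclude a pairing. With the replicate number as a block (replicate block), 0 genes and 0 members were called (smallest adjusted p 0.780, limma). Depth did not limit the members, whereas genes under 0.5 FPKM were not tested.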
